A study of Mus musculus with 12 samples.

Results

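The 34 genes described here are the enzymes of glycolysis, the carriers that bring glucose into the cell and take lactate out, and the genes of the hypoxia-inducible factor (HIF) pathway, out of 46103 genes in the deposited files. They were chosen by name and function, with earlier results of these data known. The list holds 18 enzymes from hexokinase to lactate dehydrogenase, 4 carriers and 3 kinases that set the flux. It also holds 6 genes of HIF subunits and oxygen sensing, and 3 other targets of HIF. RNA was measured in quiescent and cycling leukemia cells of a mouse model of chronic myeloid leukemia (CML), with and without imatinib, a drug that blocks the kinase BCR-ABL1. BCR-ABL1 was introduced by retrovirus into bone marrow cells of 5FU-treated donor mice, and recipients were lethally irradiated C57BL/6 mice. All donors carried a Cre-inducible G0 marker (G0M, the fluorescent protein mVenus fused to a p27 mutant that does not bind its kinases) in the Rosa26 locus, switched on by Vav1-Cre, which acts in blood cells. Bone marrow and spleen gave the cells, and 100 BCR-ABL1+ LSK cells (which lack lineage markers and carry Sca1 and c-Kit) were sorted for each library. DP cells (G0M+CD27+) and SP cells (G0M-CD27+) came from vehicle-treated mice, IMDP and IMSP cells are the same populations from mice given imatinib once a day by mouth, and each group has 3 libraries.

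In glycolysis, glucose enters through carriers of the Slc2a family, is phosphorylated by a hexokinase, is split after the phosphofructokinase and aldolase steps, and ends as pyruvate. Lactate dehydrogenase turns pyruvate into lactate, which leaves through the monocarboxylate carriers Slc16a1 and Slc16a3. HIF is a pair of Hif1a or Epas1 with Arnt; in the presence of oxygen the prolyl hydroxylases Egln1 and Egln3 mark the alpha subunit for destruction through Vhl, and at low oxygen HIF switches on many glycolytic genes. HIF is regulated mostly at the protein level, which RNA does not show. Quiescent blood stem cells are known for a preference for glycolysis and for high HIF activity in the marrow.

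The deposited unit is RPKM, reads per kilobase of transcript and per 1 M reads in the library. The total behind it was 11.4 to 20.6 M reads per library, of which 25.9% to 37.1% fell on listed features, so that 1 read per kilobase equals 0.0486 to 0.088 RPKM. That share was lower in the G0M+ than in the G0M- library of each pair with neighbouring library numbers, and the levels below are per total read as deposited. All imatinib libraries have lower library numbers than all vehicle libraries, so treatment and library number cannot be told apart. Nothing says whether libraries of a group came from separate mice, so p-values measure only the spread between these libraries, which may be technical. In bulk samples, fewer cells of a type and less RNA per cell cannot be told apart. The LSK markers Kit, Ly6a, Cd27 and Cd34 were present in all 12 libraries. The proliferation gene Mki67 was at 10.9 to 21.2 RPKM in DP and 7.18 to 10.1 in IMDP cells against 50.8 to 57.7 in SP and 54.5 to 70.6 in IMSP cells (log2 difference -2.42, SE 0.16, adjusted p = 6.12e-06, averaged over treatments).

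The first comparison asked whether quiescent (G0M+) cells carry more or less RNA of these genes than cycling (G0M-) cells. Averaged over treatments, 7 of the 30 members that passed the filter on low values fell and 1 rose, at a Benjamini-Hochberg adjusted p under 0.05 in a limma fit over all 10072 genes tested. The genes that fell are 6 glycolytic enzymes (Pfkp, Tpi1, Gapdh, Pgam1, Eno1 and Ldha) and the lactate carrier Slc16a1, and the gene that rose is the aldolase Aldoc. The 8 calls are 26.7% of the members, against 26.3% of all genes tested (5.32% higher and 21% lower), so the share of members called is near the background. Their median log2 difference was -0.23, against -0.13 for all genes. Without DP replicate 2, DP replicate 3, SP replicate 2 or IMSP replicate 1 the count was 4, without IMDP replicate 2 or 3 it was 5, and without DP replicate 1 or IMSP replicate 2 it was 12. Aldoc, Pgam1, Ldha and Slc16a1 kept their call when any of the 12 libraries was left out. Pfkp, Tpi1, Gapdh and Eno1 lost it in 5, 6, 6 and 9 of the 12 fits.

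Among vehicle-treated mice, no member passed between DP and SP cells by this test (0 of 30 called, beside 2.26% of all genes). At an unadjusted p under 0.05 there was 1 member, and limma-voom on reads recovered from the RPKM steps called 0. The member median was -0.16 and the median of all genes -0.02. Under imatinib, IMDP against IMSP cells, 7 members fell and 1 rose, which is again 26.7% of the members tested, against 25.6% of all genes (2.37% higher and 23.3% lower). The member median was -0.29 and that of all genes -0.25. Here Pkm passed in place of Eno1. Without IMDP replicate 2 the count fell to 1 (Slc16a1) and without IMSP replicate 1 to 1 (Aldoc). Without IMDP replicate 3 or IMSP replicate 3 it was 3, and Ldha and Slc16a1 were among these in both fits. The fits of this paragraph leave out the pairs of neighbouring library numbers. With the pairs as a block, 4 members passed in DP against SP (9.73% of all genes), and 8 with median scaling added (14.7%).

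**Figure D1:**
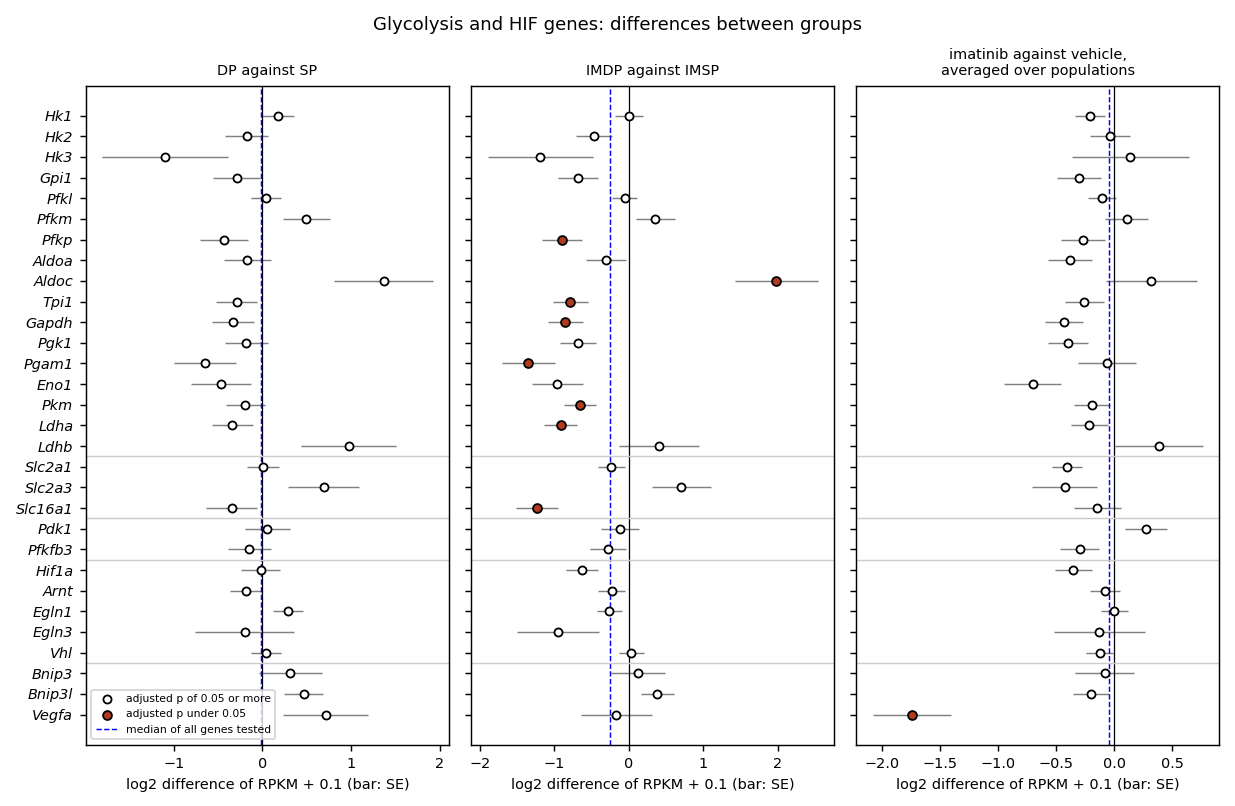
Log2 differences (RPKM + 0.1, x axis) of the 30 members tested (y axis) for DP against SP, IMDP against IMSP, and imatinib against vehicle averaged over populations; bars are SE, filled points have an adjusted p under 0.05, and the dashed line is the median of all genes tested. No point is filled in DP against SP, 8 are filled in IMDP against IMSP, and Vegfa alone is filled for imatinib.

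By the library numbers of the labels, which do not say what the numbers stand for, each G0M+ library has a G0M- neighbour of the same treatment. Within these 6 pairs, 15 of the 30 members were lower in the G0M+ library in all 6 pairs, a pattern that 24.9% of all genes show. They include 12 of the 17 enzymes tested, Slc16a1, Arnt and Egln3. Aldoc and Ldhb were higher in the G0M+ library in all 6 pairs, as were 11.3% of all genes. With the library pair as a block in the fit, 4 members passed in DP against SP (Eno1, Hk3 and Pgam1 lower, Ldhb higher; 9.73% of all genes), 18 in IMDP against IMSP (3 higher and 15 lower; 44.1% of all genes) and 20 averaged over treatments (5 higher and 15 lower; 46.9% of all genes). The replicate number of the titles forms the same pairs as the library numbers in the imatinib groups, and with it as a block 10 members passed in IMDP against IMSP, with Eno1 (adjusted p = 0.0378) and Pgk1 (adjusted p = 0.0409) added, beside 27.6% of all genes.

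Scaling each library to the same median over the genes tested removes a general shift between libraries, and it moved the balance of directions. Over all genes, the split averaged over treatments went from 536 higher and 2112 lower to 1116 higher and 1244 lower, and in IMDP against IMSP from 239 and 2342 to 634 and 925. Of the members, 7 then passed averaged over treatments, beside 23.4% of all genes: Aldoc, Bnip3l, Pfkm and Slc2a3 were higher and Ldha, Pgam1 and Slc16a1 lower. In IMDP against IMSP cells, 4 then passed, beside 15.5% of all genes: Aldoc and Bnip3l were higher and Ldha (adjusted p = 0.0471) and Slc16a1 (adjusted p = 0.0346) lower. Pgam1 (adjusted p = 0.0519), Gapdh (0.08), Tpi1 (0.0942), Pfkp (0.115) and Pkm (0.187) no longer did. Limma-voom on the recovered reads also gave 7 and 4, with the same genes. Over all genes it gave 1374 higher and 1133 lower averaged over treatments, and 830 and 740 in IMDP against IMSP. Division by the sum over listed features gave 1494 and 896, and 965 and 618. With the sum, 5 members were higher and 3 lower averaged over treatments (23.7% of all genes called), and 2 and 1 in IMDP against IMSP (15.7%). The balance of directions thus turned with the scaling.

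Ldha, on chromosome 7 (46841475 to 46855627, GRCm38), encodes the lactate dehydrogenase subunit that favours lactate formation and was the most abundant member by RPKM. It stood at 305, 189.5 and 168 RPKM in DP replicates 1 to 3, at 242, 332 and 245 in SP, at 189, 127 and 142 in IMDP and at 321, 257 and 279 in IMSP. The IMDP libraries all lay under the IMSP libraries, while DP and SP libraries overlapped. Averaged over treatments the RNA was 1.55-fold lower in G0M+ cells (log2 difference -0.63, SE 0.16, adjusted p = 0.0157), and it was 1.89-fold lower in IMDP than in IMSP cells (-0.92, adjusted p = 0.0148). With the shift of the all-gene median (-0.25) taken off, the difference in IMDP against IMSP was -0.66. Its partner Ldhb, which favours the reverse reaction, ranged from 0.904 to 7.53 RPKM and had a log2 difference of 0.69 averaged over treatments (adjusted p = 0.191, and 0.00063 with the library pair block).

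Slc16a1, on chromosome 3 (104638668 to 104658462), encodes the lactate carrier MCT1. Its levels were 20.4, 12.2 and 11.1 RPKM in DP, 16, 22.4 and 16 in SP, 11.3, 6.49 and 11.1 in IMDP and 27.9, 16.8 and 22.8 in IMSP. Each IMSP library was above each IMDP library, and DP replicate 1 stood above 2 of the 3 SP libraries. The RNA was 1.73-fold lower in G0M+ cells averaged over treatments (log2 difference -0.79, SE 0.20, adjusted p = 0.0156) and 2.34-fold lower in IMDP than in IMSP cells (-1.23, adjusted p = 0.0113, or -0.97 once the all-gene median is taken off).

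Pgam1, the phosphoglycerate mutase gene on chromosome 19 (41911923 to 41918660), showed 104, 50.1 and 48.1 RPKM in DP, 95.1, 145 and 70.8 in SP, 57.1, 35.4 and 52.9 in IMDP and 148, 83.2 and 144 in IMSP. All IMDP libraries were under all IMSP libraries, and DP replicate 1 overlapped the SP libraries. Its log2 difference was -1.0 averaged over treatments (SE 0.25, adjusted p = 0.0138) and -1.35 in IMDP against IMSP (2.55-fold lower, adjusted p = 0.0178).

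**Figure D2:**
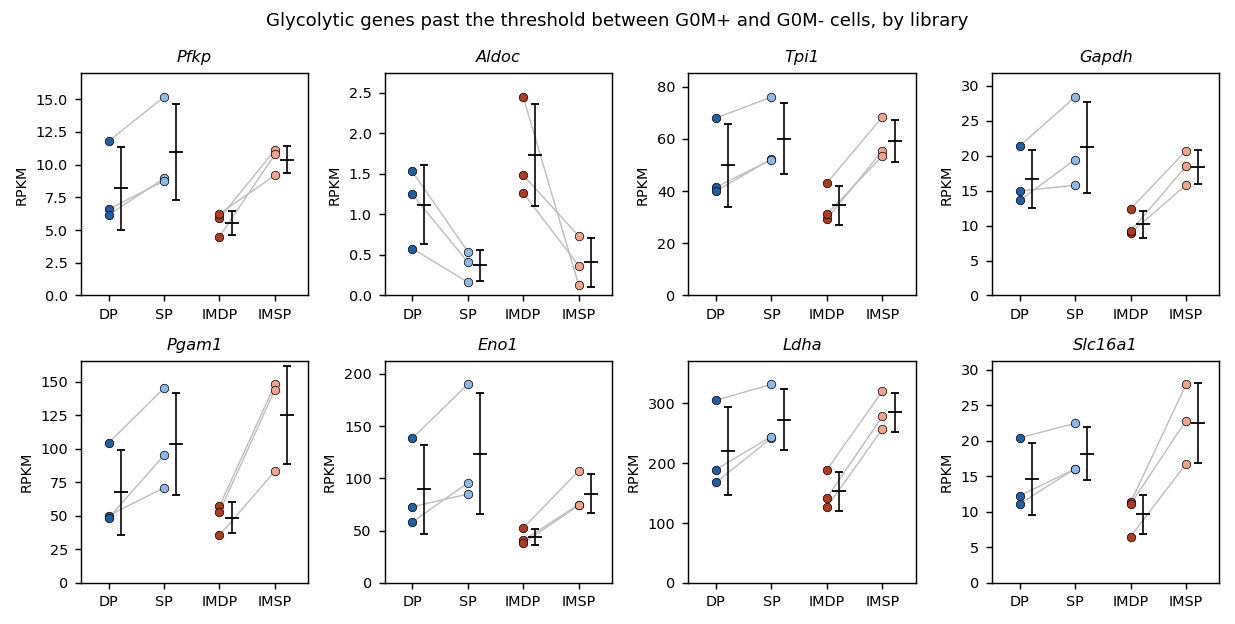
RPKM (y axis) of the 8 members past the threshold between G0M+ and G0M- cells, in DP, SP, IMDP and IMSP libraries (x axis). Points are libraries, grey lines join neighbouring library numbers, and bars are mean ± SD (n = 3); in 7 genes every line rises from the G0M+ to the G0M- library, and in Aldoc every line falls.

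The promoters of genes that moved together are shown for 3 of the 4 members that kept their call without any single library, Ldha, Pgam1 and Slc16a1, and for Gapdh as a member that holds no match. The other of these 4, Aldoc, holds no match in its 2 windows, which overlap annotated exons and are not printed. The windows are the 250 bases before a RefSeq start (GRCm38.p6), 5′ to 3′ on the strand of the gene, and the capitals mark ACGTG on either strand, the core of the site that HIF binds. The letters CACGTG hold it on both strands and were counted as 1 match. As a check of each start, the bases just after it were looked for in the GENCODE M21 transcripts of the gene. They were found for the Slc16a1 and Gapdh windows and not for the Ldha and Pgam1 windows shown. For the other Ldha start they were found. The windows lie at chr7:46845554-46845803 (plus strand), chr19:41911621-41911870 (plus strand), chr3:104638414-104638663 (plus strand) and chr6:125165774-125166023 (minus strand).
Ldha: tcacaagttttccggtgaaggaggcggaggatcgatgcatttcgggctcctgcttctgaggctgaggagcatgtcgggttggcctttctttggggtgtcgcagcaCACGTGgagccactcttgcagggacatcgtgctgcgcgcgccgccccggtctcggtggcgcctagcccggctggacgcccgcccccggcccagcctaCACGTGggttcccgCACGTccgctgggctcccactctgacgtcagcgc
Pgam1: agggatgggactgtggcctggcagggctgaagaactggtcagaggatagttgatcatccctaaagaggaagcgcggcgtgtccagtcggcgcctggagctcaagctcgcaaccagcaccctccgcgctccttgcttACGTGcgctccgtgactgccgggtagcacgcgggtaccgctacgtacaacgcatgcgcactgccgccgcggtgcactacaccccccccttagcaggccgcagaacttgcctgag
Slc16a1: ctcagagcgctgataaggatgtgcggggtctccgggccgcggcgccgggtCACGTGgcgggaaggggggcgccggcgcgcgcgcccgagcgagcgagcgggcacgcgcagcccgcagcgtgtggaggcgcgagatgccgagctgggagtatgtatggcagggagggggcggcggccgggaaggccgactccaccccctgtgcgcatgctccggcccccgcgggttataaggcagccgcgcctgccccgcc
Gapdh: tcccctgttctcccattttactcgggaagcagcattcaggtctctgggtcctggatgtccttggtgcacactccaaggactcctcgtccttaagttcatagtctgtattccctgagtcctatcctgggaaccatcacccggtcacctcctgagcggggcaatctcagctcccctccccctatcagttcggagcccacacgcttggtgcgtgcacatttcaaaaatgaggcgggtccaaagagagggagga
The Ldha window shown holds 3 matches, at 145, 48 and 34 bases before its start, while the window of the other Ldha start (chr7:46846832-46847081) holds none, Pgam1 holds 1 at 114 bases, and Slc16a1 holds 1 at 200 bases. Of the 34 members, 31 were found in the promoter table (not Epas1, Slc2a3 and Bnip3l), and 17 of them (54.8%) hold the motif in at least 1 window, against 4998 of 27025 genes (18.5%). By window the shares were 44.4% of the members' 45 windows and 16.6% of 32851 windows in all. The members were listed partly as genes that HIF switches on. A share above that of all genes was thus built into the choice, and nothing is read from it. The genes with the motif include 8 of 18 enzymes (Hk2, Hk3, Pfkm, Aldoa, Pgk1, Pgam1, Pkm and Ldha), the carriers Slc2a1, Slc16a1 and Slc16a3, and the sensing genes Egln1 and Egln3. Of the 8 members called averaged over treatments, Pgam1, Ldha and Slc16a1 hold it in at least 1 window and Pfkp, Aldoc, Tpi1, Gapdh and Eno1 in none. A match of letters is a description and not a bound site.

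Of the 17 enzymes tested, 6 fell and 1 rose in IMDP against IMSP cells, beside 25.6% of all genes called. The median of the enzymes was -0.68 and that of all genes -0.25. Over all 30 members, a wider set than the enzymes, the median was -0.29, with 8 above 0. With each library scaled to the same median, it was -0.02 for the 30 members, with 14 above 0, and 0.02 for all genes. The scaled median of the enzymes alone is not given here, so these values do not say whether their shift remained. Gapdh, on chromosome 6 (125161715 to 125166467), makes the first energy-rich phosphate and stood at 21.4, 14.9 and 13.6 RPKM in DP, 19.5, 28.4 and 15.8 in SP, 12.4, 8.94 and 9.22 in IMDP and 20.7, 15.8 and 18.5 in IMSP. IMDP libraries did not overlap IMSP libraries, and DP libraries overlapped SP libraries. The difference was 1.51-fold averaged over treatments (log2 -0.59, SE 0.17, adjusted p = 0.0236). Eno1, the enolase on chromosome 4 (150236721 to 150248879), stood at 138, 72.8 and 58.1 RPKM in DP, 95.6, 190.0 and 84.9 in SP, 52.3, 40.6 and 37.9 in IMDP and 107, 74.9 and 74.1 in IMSP. The highest Eno1 values were in SP replicate 2 and DP replicate 1, which are neighbours in library number. Its log2 difference was -0.71 averaged over treatments (SE 0.24, adjusted p = 0.0475) and -0.96 in IMDP against IMSP (adjusted p = 0.0575).

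Tpi1, which interconverts the triose phosphates (chromosome 6, 124810586 to 124814296), was at 68, 41.5 and 40 RPKM in DP, 52.3, 76.1 and 52.1 in SP, 43.1, 29.3 and 31.2 in IMDP and 68.4, 55.6 and 53.6 in IMSP. Pfkp, the platelet type of phosphofructokinase at the committed step (chromosome 13, 6579768 to 6648777), was at 11.8, 6.58 and 6.15 RPKM in DP, 8.94, 15.2 and 8.76 in SP, 5.91, 6.25 and 4.5 in IMDP and 11.1, 9.18 and 10.8 in IMSP. In both genes IMDP and IMSP libraries were apart and DP and SP libraries overlapped. Averaged over treatments Tpi1 was 1.45-fold lower in G0M+ cells (log2 -0.54, SE 0.16, adjusted p = 0.0323) and Pfkp 1.59-fold lower (log2 -0.67, SE 0.19, adjusted p = 0.0247). The reads of Gapdh, Pgk1, Pgam1, Eno1 and Ldha may be shared with copies listed beside them, most of which are at 0 in all libraries (Gapdh-ps15 reached 1.78 RPKM and Eno1b 0.771), so the levels of these genes are uncertain. Gapdh, at 8.94 to 28.4 RPKM, was far under its neighbours in the pathway.

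Pkm, pyruvate kinase on chromosome 9, stood at 80.1 to 113 RPKM in DP, 96.5 to 132 in SP, 55.4 to 92.7 in IMDP and 89.8 to 133 in IMSP cells. It passed in IMDP against IMSP (log2 -0.66, adjusted p = 0.0447), although IMDP replicate 1 lay above IMSP replicate 2, and averaged over treatments it did not (-0.42, adjusted p = 0.0594, and 0.00112 with the library pair block). Pgk1, phosphoglycerate kinase, and Gpi1, glucose phosphate isomerase, had log2 differences of -0.43 (adjusted p = 0.0786) and -0.49 (adjusted p = 0.0765) averaged over treatments. With the library pair block both passed (adjusted p = 0.00123 and 0.00106). Aldoa, the main aldolase gene, ranged from 43.4 to 112 RPKM, Hk1 from 10.8 to 20.4, Hk2 from 6.78 to 14.4 and Pfkl from 12.4 to 17.9. None of these 4 passed in any comparison of the main fit, which uses all libraries, the deposited RPKM and no block. With the library pair block Hk2 (adjusted p = 0.0129) and Aldoa (adjusted p = 0.0173) were lower in G0M+ cells averaged over treatments, and with median scaling added they did not pass (adjusted p = 0.188 and 0.347).

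Aldoc, the aldolase known from brain, on chromosome 11 (78322968 to 78327781), was the member that moved the other way. It stood at 0.578, 1.25 and 1.53 RPKM in DP, 0.541, 0.164 and 0.414 in SP, 1.48, 1.26 and 2.44 in IMDP and 0.733, 0.367 and 0.129 in IMSP, on 5 to 119 reads per library. Each G0M+ library was above each G0M- library, except that DP replicate 1 lay under IMSP replicate 1. The difference was 3.19-fold averaged over treatments (log2 1.67 on the RPKM + 0.1 scale, which understates changes of low genes, SE 0.39, adjusted p = 0.0107) and in IMDP against IMSP 1.98 (adjusted p = 0.0234). Aldoc gave 0.147% to 4.57% of the summed aldolase RPKM of a library. Eno2, the neuronal enolase, did not pass the filter, reached at most 0.399 RPKM and was listed at 0 in 4 libraries.

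Isozymes of a family were compared by their share of the summed RPKM of the family. Hk3, the hexokinase known from myeloid cells, gave 28.9% ± 14.1 (SD, n = 3) of the summed hexokinase RPKM in DP against 46.1% ± 16.2 in SP cells, and 33.8% ± 13.1 in IMDP against 49.2% ± 15.7 in IMSP cells, and its share was lower in the G0M+ library of all 6 pairs. Its level varied from 4.89 to 48 RPKM, and the difference of -1.14 did not pass (adjusted p = 0.106), while with the library pair block it did (adjusted p = 6.33e-05, and 9.99e-05 with median scaling added). Pfkp gave 27.9% ± 5.7 of the phosphofructokinase RPKM in DP against 36.4% ± 6.6 in SP cells, and 22.7% ± 4.1 in IMDP against 36.1% ± 4.5 in IMSP cells. Slc2a3, the high-affinity glucose carrier GLUT3, gave 52.7% ± 5.0 of the RPKM of Slc2a1 and Slc2a3 in DP against 41.4% ± 12.6 in SP cells, and 54.6% ± 5.8 in IMDP against 39.0% ± 15.2 in IMSP cells, and in each of the 6 pairs the G0M+ library had the higher share. DP and SP libraries overlapped in all of these shares, and IMDP and IMSP libraries were apart for Pfkp and overlapped for Hk3 and Slc2a3. Ldha gave 94.4% to 99.7% of the lactate dehydrogenase RPKM, Aldoa 95.4% to 99.9% of the aldolase RPKM and Eno1 at least 99.0% of the enolase RPKM, in all 12 libraries.

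**Figure D3:**
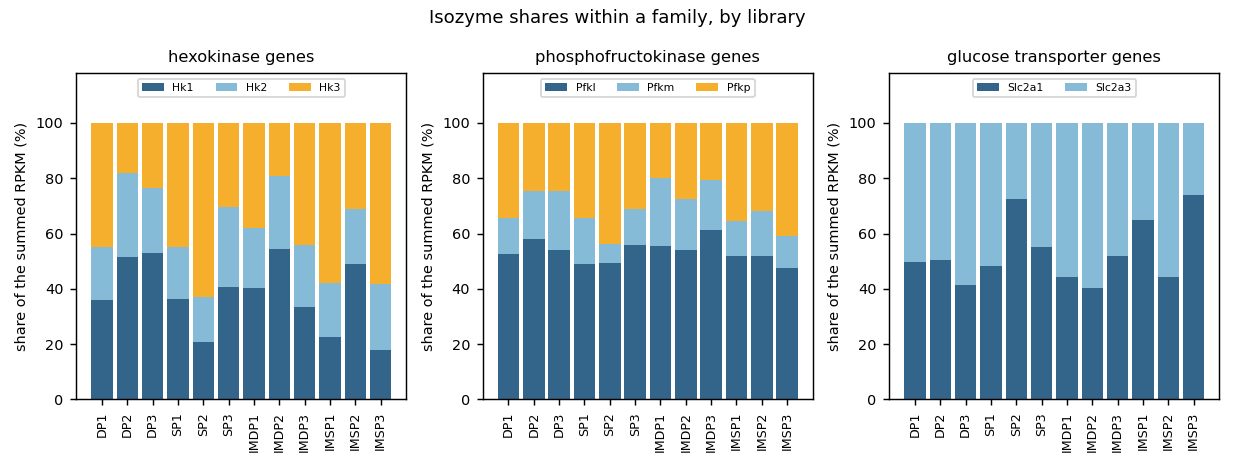
Share of the summed RPKM of a family (y axis, %) given by each hexokinase gene, phosphofructokinase gene and glucose carrier gene in each of the 12 libraries (x axis). The Hk3 share runs from 18.3% to 62.8% and the Slc2a3 share from 26.1% to 59.6%, with SP replicate 2 highest for Hk3 and IMSP replicate 3 lowest for Slc2a3.

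Of the glucose carriers, Slc2a1 (GLUT1) stood at 8.67 to 11.9 RPKM in DP, 7.72 to 12.3 in SP, 6.84 to 7.71 in IMDP and 8.11 to 8.9 in IMSP cells. All IMDP libraries were below all other libraries, and the difference between IMDP and DP cells did not pass (log2 -0.53, adjusted p = 0.144). Slc2a3 stood at 3.14 to 12.2 RPKM and had a log2 difference of 0.70 averaged over treatments (adjusted p = 0.0829, and 0.0105 with the library pair block). The lactate exporter Slc16a3 (MCT4), a HIF target in many cells, did not pass the filter, with 0.232 to 2.44 RPKM. Of the flux kinases, Pdk1, which keeps pyruvate out of the mitochondria, ranged from 4.14 to 8.15 RPKM. Pfkfb3, which makes the activator of phosphofructokinase, ranged from 4.31 to 9.32. Neither passed in any comparison of the main fit. Pfkfb4 reached at most 0.683 RPKM.

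None of the 5 HIF subunit and oxygen sensing genes tested passed in any of the 7 comparisons of the main fit, which has no block. With the library pair block Hif1a (adjusted p = 0.0178) and Egln3 (adjusted p = 0.0286) were lower in G0M+ cells averaged over treatments, and with median scaling added they did not pass (adjusted p = 0.105 and 0.0722). Hif1a, the oxygen-regulated subunit on chromosome 12 (73901375 to 73947530), stood at 9.84, 7.58 and 5.87 RPKM in DP, 6.53, 10.8 and 6.46 in SP, 5.05, 4.29 and 5.05 in IMDP and 7.11, 7.83 and 7.44 in IMSP. The IMDP libraries were the lowest of all, and DP and SP libraries overlapped. The log2 difference was -0.63 in IMDP against IMSP (SE 0.22, adjusted p = 0.0546, and with the library pair block 0.00457, or 0.0311 with median scaling added), -0.66 in IMDP against DP (adjusted p = 0.142) and -0.32 averaged over treatments (adjusted p = 0.135). Epas1, which encodes the other alpha subunit HIF-2α, did not pass the filter: it reached 1 RPKM in 1 library, IMDP replicate 2, and lay between 0.0213 and 0.704 in the others.

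Arnt, the constant partner of HIF, ranged from 4.23 to 7.01 RPKM, Egln1 ranged from 3.67 to 5.78 and Vhl from 3.52 to 5.36. Egln3, itself induced by HIF, stood at 6.56, 4.13 and 3.74 RPKM in DP, 3.78, 7.82 and 5.25 in SP, 4.66, 1.06 and 6.79 in IMDP and 8.95, 3.98 and 7.32 in IMSP. It was lower in the G0M+ library of all 6 pairs and its groups overlapped (log2 -0.58 averaged over treatments, adjusted p = 0.287). Bnip3, a mitophagy receptor, ranged from 1.85 to 6.11 RPKM, and its relative Bnip3l stood at 10.3, 9.72 and 11 in DP, 8.61, 7.27 and 6.68 in SP, 10.5, 9.1 and 6.98 in IMDP and 6.36, 9.46 and 4.97 in IMSP. Each DP library was above each SP library in Bnip3l, and the difference averaged over treatments was 0.42 (adjusted p = 0.0643, and 0.0101 with the library pair block).

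**Figure D4:**
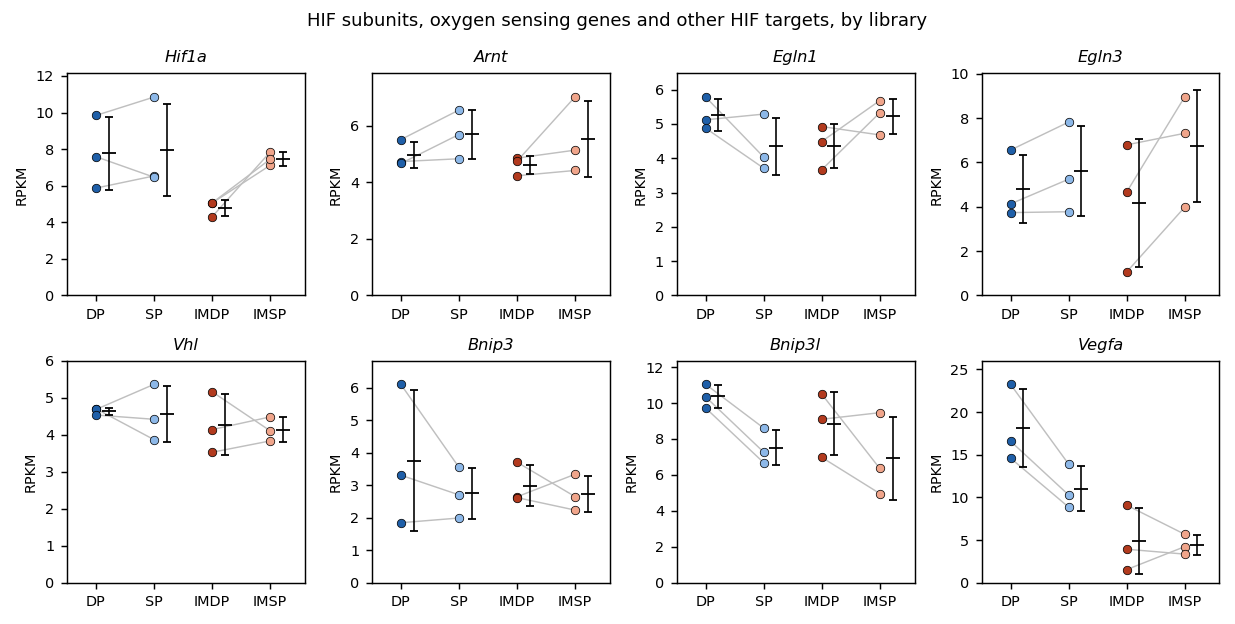
RPKM (y axis) of HIF subunits, oxygen sensing genes and other HIF targets in DP, SP, IMDP and IMSP libraries (x axis). Points are libraries, grey lines join neighbouring library numbers, and bars are mean ± SD (n = 3); Vegfa is at 8.87 to 23.3 in vehicle and 1.54 to 9.1 in imatinib libraries, and Hif1a is lowest in IMDP.

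The second comparison asked what imatinib did to these genes. Averaged over populations, 1 of the 30 members passed, Vegfa, which fell, against 0.854% of all genes (0.606% lower). Vegfa, a secreted growth factor for vessels and a target of HIF (chromosome 17, 46016993 to 46032369), stood at 16.6, 23.3 and 14.6 RPKM in DP, 8.87, 10.3 and 13.9 in SP, 1.54, 9.1 and 3.93 in IMDP and 4.23, 5.69 and 3.36 in IMSP. The imatinib libraries were below the vehicle libraries, except that IMDP replicate 2 lay above SP replicate 1. The fall was 3.35-fold (log2 -1.75, SE 0.34, adjusted p = 0.0406). It kept the call without DP replicate 3, IMDP replicate 1, IMDP replicate 2 or IMSP replicate 2, and lost it without any of the other 8 libraries, where the adjusted p ran from 0.0504 to 0.111. It also lost it with no filter (0.0731) and with no variance trend (0.0544).

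Within each population no member passed. In IMDP against DP cells 0 of 30 members were called by limma (7 at an unadjusted p under 0.05, and 0 by limma-voom), beside 0.367% of all genes. The member median was -0.41 and that of all genes -0.17. The members with an unadjusted p under 0.05 were Vegfa (log2 -2.19, adjusted p = 0.0626), Eno1 (-0.95), Gapdh (-0.69), Hif1a (-0.66), Slc2a1 (-0.53), Pgk1 and Ldha. Without IMDP replicate 2 Vegfa passed (adjusted p = 0.0231). In IMSP against SP cells no gene at all passed (0% of all genes, 845 at an unadjusted p under 0.05, and 0 with limma-voom), the member median was -0.04 and that of all genes 0.08, and Vegfa had a log2 difference of -1.31 (adjusted p = 0.492). These comparisons use the same libraries as those between G0M+ and G0M- cells and are not independent of them.

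Whether the gap between G0M+ and G0M- cells differed between imatinib and vehicle was tested as an interaction. No member and no gene passed (0% of all genes; 937 genes and 2 members at an unadjusted p under 0.05, and 0 members with limma-voom at either level). With the library pair block none passed either, and 2215 genes and 13 members had an unadjusted p under 0.05 (1244 genes and 6 members with median scaling added). The member median was -0.34 and that of all genes -0.25, and the log2 value was -0.88 for Slc16a1. So the calls in IMDP against IMSP, and their lack in DP against SP, are not shown to be a difference between treatments. In 11 of the 30 members all IMDP libraries were under all IMSP libraries, as in 32.8% of all genes.

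Enzymes next to glycolysis were examined from lists of related pathways, whose counts stand beside 26.3% of all genes called averaged over treatments (21% lower) and 25.6% in IMDP against IMSP cells (23.3% lower). Nothing particular to a list is read from them. In the pentose phosphate pathway 1 of 8 genes tested fell averaged over treatments, G6pdx, its entry enzyme, at 5.24 to 7.54 RPKM in IMDP against 11.6 to 17.2 in IMSP cells (log2 -0.77, adjusted p = 0.00474), and Rpia was at -0.69 (adjusted p = 0.0543). Of the genes for pyruvate entry to mitochondria 4 of 12 fell and none rose, among them the pyruvate dehydrogenase subunits Dlat (-0.61, adjusted p = 0.0055) and Dld (-0.60, adjusted p = 0.00743). In IMDP against IMSP cells the count was 6 of 12. Of other sugar and monocarboxylate carriers 1 of 7 fell, Emb, a partner protein of monocarboxylate carriers (-0.99, adjusted p = 0.0405), while Slc2a9 was at 0.60 (adjusted p = 0.0527). Of other carbohydrate enzymes Ldhd, the D-lactate dehydrogenase, rose (1.05, adjusted p = 0.0404) and Adpgk, an ADP-dependent glucokinase, fell (-0.48, adjusted p = 0.0481) out of 16.

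Beside the same 26.3% of all genes called (21% lower and 5.32% higher), 5 of 17 other HIF regulators fell and none rose, with the smallest adjusted p for the ubiquitin ligase Stub1 (-0.69, adjusted p = 0.000333) and the chaperone Hsp90ab1 (-0.42, adjusted p = 0.0233). Of 31 further HIF targets 2 rose and 3 fell. Hmox1, the heme oxygenase, which also answers to heme and oxidative stress, was at 0.901 to 4.94 RPKM in DP and 1.82 to 2.82 in IMDP against 0.0471 to 0.308 in SP and 0.167 to 0.329 in IMSP cells (log2 3.27, adjusted p = 0.000264), and the cyclin Ccng2 fell (-0.78, adjusted p = 0.0249). Of 18 MYC and nutrient signalling genes 2 rose and 3 fell. Prkag1, a subunit of the energy sensor AMPK, fell (-0.43, adjusted p = 0.00873). Mxd1, which opposes MYC, rose (0.67, adjusted p = 0.00942), and with imatinib it fell in IMDP against DP cells (-1.66, adjusted p = 0.027) and averaged over populations (-1.43, adjusted p = 0.0036).

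Other gene groups also differed between G0M+ and G0M- cells. Of 26 genes of S, G2 and M phase 16 fell in G0M+ cells averaged over treatments and none rose, beside 21% of all genes that were lower. Top2a was among them (-2.67, adjusted p = 1.8e-05), and Ccnb2 fell in IMDP against DP cells (-2.50, adjusted p = 0.047). In DP against SP cells 12 of the 26 fell while 0 of the 17 enzymes tested were called, beside 2.26% of all genes. The summed RPKM of 11 neutrophil lineage genes, most of it from the granule genes Mpo, Elane, Ctsg and Prtn3, was 1426, 71.2 and 252 in DP, 913, 2649.9 and 388 in SP, 208, 76.7 and 295 in IMDP and 2228, 521 and 1267 in IMSP, and it was lower in the G0M+ library of all 6 pairs. The summed RPKM of the 18 glycolytic enzymes was 1112, 704 and 634 in DP, 886, 1335 and 817 in SP, 687, 468 and 549 in IMDP and 1158, 814 and 965 in IMSP. The 4 libraries with the highest granule sums (SP replicate 2, IMSP replicate 1, DP replicate 1 and IMSP replicate 3) were also the 4 with the highest enzyme sums. At the low end the orders parted: DP replicate 2 had the lowest granule sum (71.2). Its enzyme sum of 704 was above those of DP replicate 3 and all IMDP libraries. SP replicate 2 held the highest value of 9 of the 17 enzymes tested and IMDP replicate 2 the lowest value of 11.

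**Figure D5:**
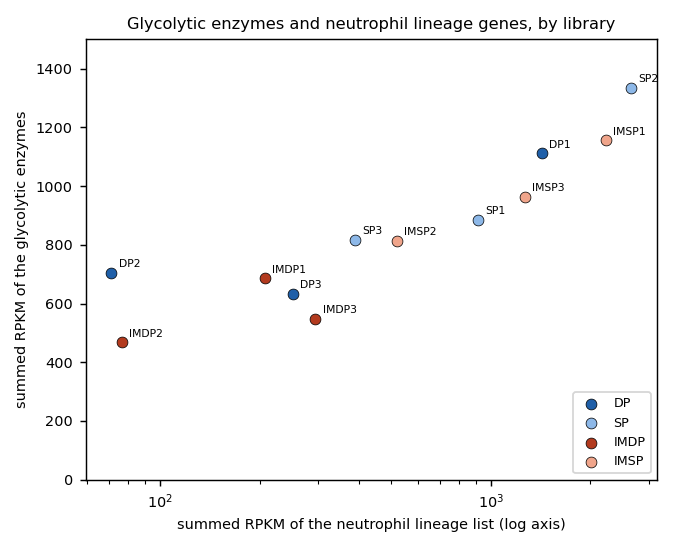
Summed RPKM of the 18 glycolytic enzymes (y axis) against the summed RPKM of 11 neutrophil lineage genes (x axis, log scale) for the 12 libraries, coloured by group. SP replicate 2 is highest on both axes (1335 and 2649.9), and IMDP replicate 2 has the lowest enzyme sum (468) with a granule sum of 76.7.

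Lists of genes of other blood cells had these summed RPKM. The sort took cells with CD27 and without lineage markers, and the study described mast-like cells in the G0M+CD27- fraction, which was not sorted here. The mast cell and basophil list stood at 80.1 to 298 in DP and 25.4 to 197 in IMDP against 20.1 to 21.6 in SP and 16.1 to 26.4 in IMSP, with Tpsab1 at 0. The erythroid list stood at 208 to 269 in DP, 55.2 to 148 in SP, 58.4 to 488 in IMDP and 10.7 to 72.9 in IMSP, and the macrophage list at 4.8 to 13.4 in DP, 2.8 to 3.92 in SP, 11.2 to 14.8 in IMDP and 3.68 to 8.72 in IMSP, with Marco at 0. The lymphocyte list of 10 genes stood at 84.6 to 175 in DP, 92.9 to 268 in SP, 28.4 to 84.6 in IMDP and 64.2 to 166 in IMSP, with Ebf1, Pax5 and Trbc2 at 0 in all libraries. The part of cell cycle, lineage genes and the share of reads on listed features in the differences of the glycolytic genes was not tested.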

How the data were processed

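RNA of 100 sorted cells per library was sequenced in 12 libraries, 3 per group. Reads were aligned to GRCm38, and the deposited files hold RPKM, computed by the authors, for 48737 features in each library. The file headers do not name the unit, which was taken from the study's text and from the steps of the values. CLC Genomics Workbench is the tool of the methods text, HISAT2 and featureCounts are those of the reporting summary, and whether reads shared between gene copies were kept is not given in the sources used here. RPKM values of a feature stand in whole-number ratios, which allowed read numbers to be recovered: 100% of the 17735 features above 0 gave whole reads within 0.01. PCR copies are not marked, so precision from reads covers counting error only.

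Numbered copies of a gene were summed. The 10072 genes that reached 1 RPKM in 3 libraries or more entered a limma fit (version 3.58.1, R 4.3.3) of log2(RPKM + 0.1) on 4 group means, with the variance trended on the mean. Genes were called under an adjusted p (Benjamini-Hochberg) of 0.05, in each of 7 comparisons. Folds are on that scale. The filter kept 30 of the 34 genes listed, not Eno2, Slc16a3, Pfkfb4 and Epas1. The fit was also run on simulated data with independent libraries. That run does not cover libraries that deviate together in pairs, and nothing is read from it. Python 3.11.15, pandas 2.3.3 and numpy 2.4.6 served for tables, gene positions came from GENCODE M21, and promoters from RefSeq.

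All 34 genes are named, and of each related list the 2 genes with the smallest adjusted p between G0M+ and G0M- cells and any gene past the threshold in a treatment comparison. The members and lists were chosen with earlier results of these data known. Alternatives changed the filter, pseudocount, groups in the fit, scaling, variance trend, copies and library left out, added a block, or used limma-voom on the recovered reads. As a check of pairing, deviations from the group means of libraries with the same replicate number correlated at 0.43, 0.65 and 0.46 between IMDP and IMSP and at -0.19, -0.30 and -0.10 between DP and SP. Neighbouring library numbers of DP and SP correlated at 0.50, 0.51 and 0.52, so only library numbers pair all libraries.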

Additional observations from a re-analysis of the deposited data

How the results depend on the processing

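Depth limits Aldoc, Eno2, Epas1, Slc16a3 and Pfkfb4, which rest on few reads, and 3 libraries per group limit each comparison. The 1465 recomputed gene values are refits of 56 gene values and do not cover all members in all comparisons. Of the 1465, 1269 kept direction and side of the threshold, 108 lost the threshold, 88 gained it and 0 reversed. Directions over all 30 members were less stable: in IMDP against IMSP, 8 were above 0 in the main fit and 14 with median scaling. With division by the sum over listed features or with limma-voom 16 were above 0. The cause of the changes below was not tested. With the replicate block 10 members passed in IMDP against IMSP and 9 averaged over treatments, where Pkm was added (2781 and 2811 genes), and it changed no other call of a member.

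Members called. With the library pair as a block 4, 18 and 20 passed in DP against SP, IMDP against IMSP and averaged over treatments, and 8, 17 and 17 with median scaling added (added after seeing the data). With scaling the shares of all genes called were 14.7%, 39.0% and 45.2%. In IMDP against IMSP the count was 4 with median scaling, 3 with division by the sum over listed features, 4 with limma-voom and 2 without libraries 3 and 4 (also added after seeing the data, as is leaving out libraries 9 and 10). Without libraries 3 and 4 it was 1 in IMDP against DP. For imatinib averaged over populations it was 0 with no filter, with no variance trend and without libraries 9 and 10. Leaving out each library in turn gave 1 to 11 in IMDP against IMSP, 4 to 12 averaged over treatments, 0 to 1 in IMDP against DP and 0 to 1 for imatinib.

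All genes called. The library pair block gave 980, 4446 and 4721 genes in the same 3 comparisons, and 1479, 3932 and 4551 with median scaling. IMDP against IMSP gave 1553 genes in a fit of those groups alone, 1559 with median scaling, 1583 with the sum, 1570 with limma-voom and 1019 without libraries 3 and 4. IMDP against DP gave 0, 2, 14 and 11 in the first 4 of these, 1 with no variance trend and 9 without libraries 9 and 10. IMSP against SP gave 9 without libraries 3 and 4 and 4 without libraries 9 and 10. Imatinib averaged over populations gave 46 with no filter, 162 with median scaling, 246 with the sum, 166 with limma-voom and 369 without libraries 3 and 4, and the interaction gave 1 without libraries 3 and 4. Leaving out each library in turn gave 125 to 264 in DP against SP, 902 to 2962 in IMDP against IMSP, 0 to 189 in IMDP against DP, 1583 to 3061 averaged over treatments, 12 to 143 for imatinib and 0 to 1 for the interaction.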
